A study of Mus musculus with 6 samples.

Results

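The library labelled BMP4 11 h was compared with the library labelled 96 h untreated, gene by gene, in mouse mesoderm progenitor cells of the C57BL/6 strain. The labels give both as the same kind of cell on the same feeder layer, so the pair was chosen by its labels and no measured value entered the choice. These are 2 of 6 libraries of total RNA, and 1 library stands for each condition. The 96 h untreated cells had spent 96 h in co-culture with no growth factor (none added, per the labels). The BMP4 11 h cells are labelled as 107 h in culture, the last 11 of them with rhBMP4, a recombinant human protein. The other libraries, given beside these as further values, were 0 h untreated (0 h in culture), BMP4 5 h and BMP4 with FGF8 5 h (rhBMP4 alone or with rhFGF8, 101 h in culture), and BMP4 with FGF4 11 h (rhBMP4 with rhFGF4, 107 h in culture). All 6 share a medium with serum and antibiotics and mouse embryonic fibroblasts whose division mitomycin C had stopped. The libraries therefore can hold RNA of these feeder cells. No untreated library of 107 h was analysed here, so the protein and any difference in time in culture cannot be told apart. The labelled times themselves are in doubt, because the 5 h libraries lay close to 0 h and BMP4 11 h between 0 h and 96 h in the values below. If the cells had been in culture for less time than labelled, a ratio to 96 h would also compare shorter with longer culture, and this was not tested. With 1 library a side there is no replicate, and intervals cover counting error only.

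BMP4 is a secreted ligand of the TGF-beta superfamily. It binds paired type I and type II receptors at the cell surface, which phosphorylate SMAD1, SMAD5 and SMAD9. These enter the nucleus with SMAD4 and switch on genes such as Id1 to Id4 and the inhibitory Smad6 and Smad7. In the embryo the posterior tip, or tailbud, holds progenitors marked by the T-box gene T (Brachyury) that feed the presomitic mesoderm, while higher BMP levels at the flank go with lateral plate fates such as heart, vessel and blood. FGF and WNT signals keep the tailbud state, and retinoic acid opposes it.

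Totals were 272743104 counts for 96 h untreated and 179196459 for BMP4 11 h, and between 206470866 and 222676298 for the other 4. At this depth 3 counts equal 0.0111 and 0.0179 CPM (counts per 1000000, scaled by TMM) in the compared libraries. The growth factor columns had to be matched to the gene names, and 13956 genes were analysed. A gene was counted as higher or lower where its ratio, after 0.5 CPM was added to both values, was at least 2-fold and the 95% counting interval excluded 1. This held for 351 genes higher, or 2.52% of those analysed, and 42 lower, or 0.301%, which makes 2.82% in either direction. Most genes moved little: 92.0% were within 1.5-fold, and the median log2 ratio was -0.02. Changes of at least 4-fold numbered 51 upward and 3 downward.

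**Figure D1:**
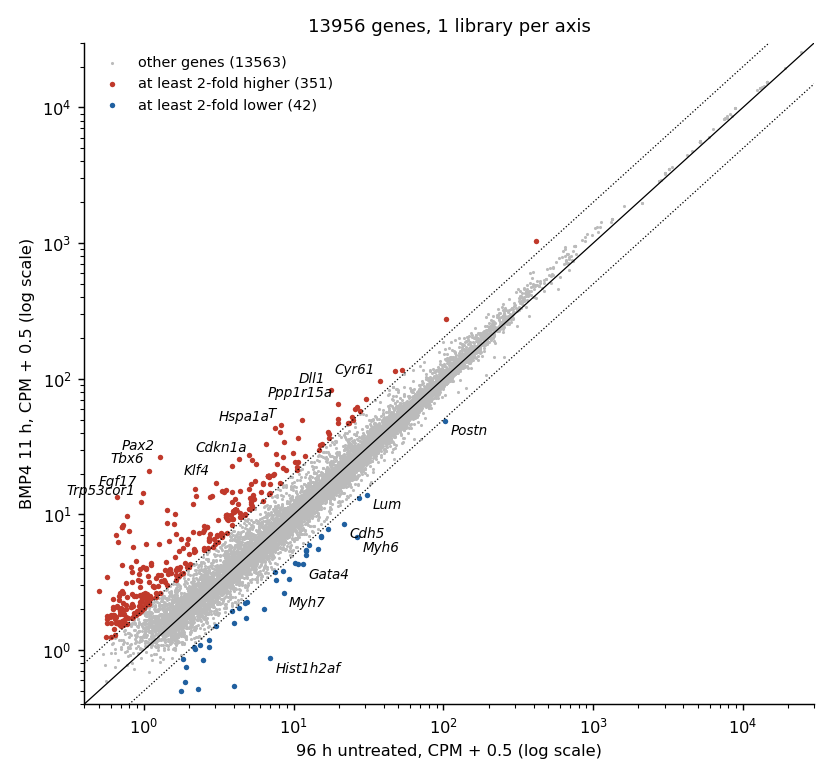
Level of each of the 13956 genes with BMP4 at 11 h (vertical axis) against 96 h untreated (horizontal axis), both as CPM + 0.5 on log scales. The solid line marks equal levels and the dotted lines 2-fold. The 351 genes at least 2-fold higher outnumber the 42 lower, and some of each are named.

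The genes that were higher fell into 2 sorts by their level at 0 h. In 104 of the 351 the BMP4 11 h value lay between the 2 untreated libraries, that is, above 96 h and at or below 0 h. In the other 247 it lay above both, and in 142 it was at least 2-fold above both. Of these 142 genes, 97 were under 5 CPM in BMP4 11 h. Of the 42 lower genes, 34 lay between the untreated libraries and 8 below both. Genes at least 4-fold apart between the untreated libraries show how the BMP4 11 h library sat between them. Over 78 such genes that were higher at 0 h, its level stood a median of 38.5% of the way from the 96 h to the 0 h value (quartiles 28.0% and 48.5%). Over 155 that were higher at 96 h the median was 47.5% (quartiles 35.9% and 56.7%). By the same measure the BMP4 5 h library stood at 87.8% and 99.4%, and the BMP4 with FGF4 11 h library at 4.6% and 14.9%. Libraries with growth factor for 5 h thus lay close to 0 h, although they are labelled as longer in culture than 96 h. Matching of columns to names costs nothing for values inside the untreated range, so such values are favoured. Genes were also grouped into 33 lists by pathway or cell type, and the plot of ratios by list shows each member. Some genes are in several lists and count in each.

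**Figure D2:**
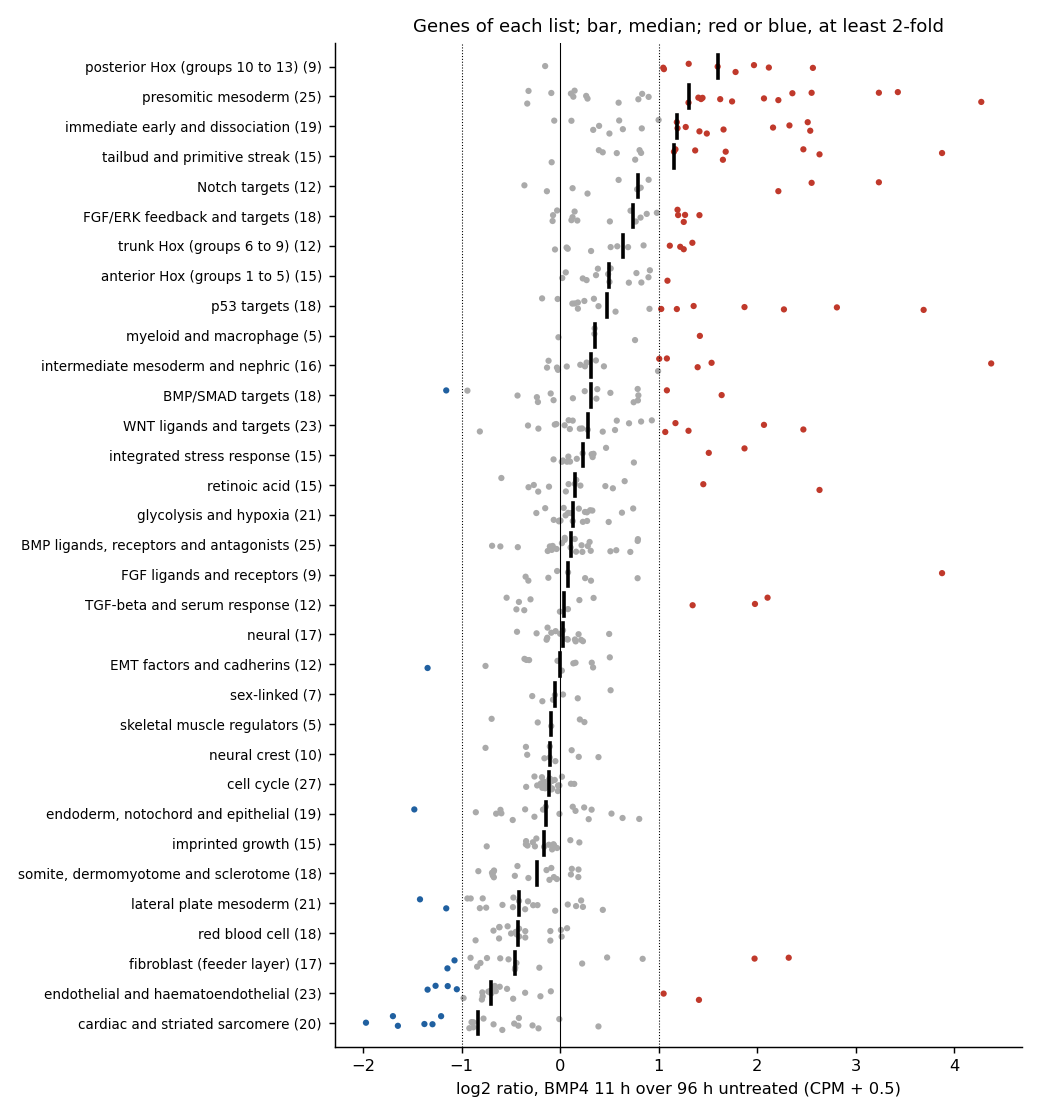
Log2 ratio of BMP4 11 h over 96 h untreated for each analysed gene (points) of the 33 gene lists, with the list's median as a bar and its number of genes in brackets; red points are at least 2-fold higher, blue at least 2-fold lower, dotted lines mark 2-fold. The medians run from -0.83 for the sarcomere list to 1.60 for posterior Hox genes.

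Tailbud, presomitic and posterior Hox genes were higher in BMP4 11 h, and each one called stayed below its 0 h level. Of 15 tailbud and primitive streak genes analysed, 8 were higher and none lower, with a median log2 ratio of 1.15. Of 25 presomitic genes 13 were higher and none lower (median 1.30), and of 9 Hox genes of groups 10 to 13 it was 8 and none (median 1.60). Over all genes the shares were 2.52% higher and 0.301% lower and the median was -0.02.

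T, the T-box factor that keeps streak and tailbud cells undifferentiated (chr17:8434423-8442496 in GRCm38), was at 83.8 CPM at 0 h, 7.71 at 96 h, 78.4 and 73.9 in the BMP4 and BMP4 with FGF8 libraries of 5 h, 44.9 with BMP4 at 11 h and 11.1 with BMP4 and FGF4 at 11 h. The BMP4 11 h value was 5.55 to 6.12-fold that of 96 h, and it stood apart from the low 11 h library with FGF4. By T the label of mesoderm progenitors held at 0 h, at 5 h and with BMP4 at 11 h, while the 96 h cells were low. Tbx6, the T-box factor that commits cells to presomitic mesoderm (chr7:126781483-126785560), was at 41.0 CPM at 0 h, 0.5895 at 96 h, 37.5 and 36.5 in the BMP4 and BMP4 with FGF8 libraries of 5 h, 20.6 with BMP4 at 11 h and 3.34 with BMP4 and FGF4 at 11 h. Its ratio of 29.7 to 41.1-fold was among the farthest from 1. Msgn1, a presomitic bHLH factor, went from 0.152 to 6.51 CPM with 23.4 at 0 h. Fgf17, an FGF ligand of the tailbud (chr14:70636203-70642268), was at 0.482 CPM at 96 h, 13.9 in BMP4 11 h and 1.81 with FGF4 added. Cyp26a1, the enzyme that clears retinoic acid from the tailbud, was at 1.72, 13.3 and 3.04 CPM in the same 3 libraries. The other tailbud genes called were Nkx1-2, Evx1, Epha1, Hes3 and Wnt3a, at log2 ratios between 1.15 (Hes3) and 1.68 (Evx1).

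Some tailbud genes were securely matched in the BMP4 11 h column by its own alignment but did not pass every check asked of other genes. Such genes have values in 3 libraries only, and their placement is less certain. Among these the caudal factor Cdx2 was at 58.8 CPM at 0 h, 4.197 at 96 h and 18.3 in BMP4 11 h, and its relative Cdx4 at 61.04, 2.62 and 22.95. Fgf8, the ligand that defines the posterior gradient, was at 18.03, 1.33 and 6.52 CPM, and Fgf3 at 7.43, 0.285 and 3.25. Fgf9 (1.12 to 5.13 CPM) and Fgf4 (0.0148 to 0.562, the first from 4 counts) were higher too. Not every tailbud gene was: Lin28b (84.3 to 79.3 CPM), Cdx1 (5.31 to 5.28) and Wnt5b (36.7 to 49.6) were under 2-fold, as were Sall4 and Sp5.

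In the presomitic list the Notch ligand genes of the segmentation clock were high. Dll1 (chr17:15367354-15376872) was at 106 CPM at 0 h, 17.2 at 96 h, 109.7 and 109 in the BMP4 and BMP4 with FGF8 libraries of 5 h, 81.6 with BMP4 at 11 h and 30.9 with BMP4 and FGF4 at 11 h. It came closest to its 0 h level among the 13 presomitic genes that differed at least 4-fold between the untreated libraries, at 72.8% of the way, against a list median of 41.0%. Dll3, which damps Notch signals within the same cell, went from 3.38 to 22.2 CPM, and the clock repressor Hes7 from 0.3003 to 7.03 CPM. The protocadherin genes Pcdh8 and Pcdh19, the WNT agonist gene Rspo3, the WNT antagonist gene Dkk1 and the segment border genes Mesp2 and Ripply2 were higher as well, at log2 ratios from 1.30 (Dkk1) to 2.36 (Pcdh19). Other members of the presomitic list were not called, among them Lfng (log2 ratio 0.28), Hes1 (0.59), Nrarp (0.90), Mesp1 (0.83) and Ripply1 (-0.34). Mesp1 was near the floor, at 0.0297 and 0.442 CPM (8 and 74 counts), and the 0.5 CPM added to both values made its ratio smaller. Without that addition its ratio was 7.18 to 35.8-fold. Genes of later somites were not called either: the Meox1, Pax3 and Tcf15 log2 ratios were -0.14, 0.12 and 0.11. None of 18 somite, dermomyotome and sclerotome genes was called (median -0.23).

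Hox genes showed a step by position in the clusters, which run from anterior (group 1) to posterior (group 13). The share called higher was 8 of 9 for groups 10 to 13, 4 of 12 for groups 6 to 9 (median 0.63) and 1 of 15 for groups 1 to 5 (median 0.50), and none was lower. No test of this step is possible with 1 library a side, and the share higher over all genes was 2.52%. Hoxd11 (chr2:74679557-74687016) went from 3.84 to 25.1 CPM and Hoxc10 (chr15:102966796-102971893) from 10.9 to 49.1 CPM, both under their 0 h levels of 63.4 and 104. Hoxa13, at 1.15 and 0.986 CPM, was the group 10 to 13 gene not called. Hoxb8 (31.8 to 30.6 CPM) and Hoxb9 (105 to 110.1 CPM) were nearly level, while Hoxa9 went from 19.4 to 49.95 CPM. Hoxb1, which is used in the streak as well as the hindbrain, was the anterior gene called (10.01 to 21.8 CPM).

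**Figure D3:**
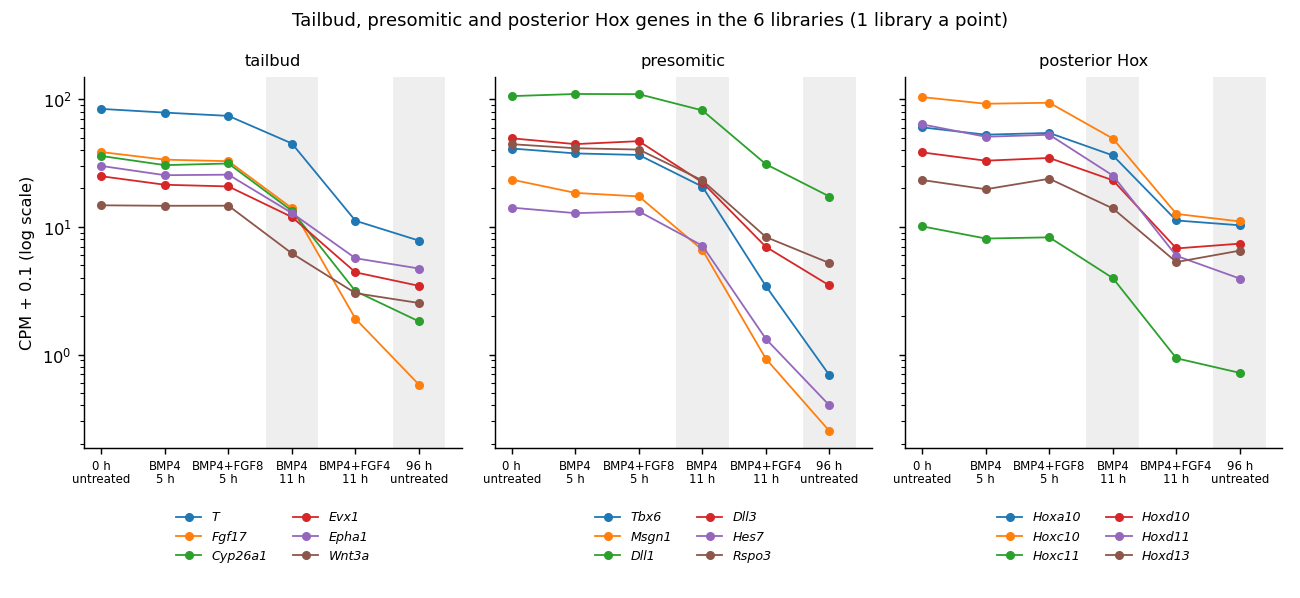
Level of 18 tailbud, presomitic and posterior Hox genes in each of the 6 libraries, as CPM + 0.1 on a log scale, 1 library a point; lines only join the values of a gene and grey bands mark the compared libraries. In each panel BMP4 11 h lies between the high 0 h and 5 h libraries and the low 96 h library, as T does at 44.9 CPM between 83.8 and 7.71.

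Signalling genes of the tailbud moved in part, and the counts below stand beside 2.52% higher and 0.301% lower over all genes. Of 18 FGF/ERK feedback and target genes 5 were higher and none lower (median 0.74): the feedback inhibitor Spry4 (4.73 to 11.5 CPM), the ETS factor Etv4 (8.37 to 20.8 CPM), the phosphatase gene Dusp4 (19.2 to 46.5 CPM), and Fos and Ier3, described below. Dusp6, a common ERK readout, was at 50.5 and 71.8 CPM and not called, and Spry1 was at 10.6 and 11.7. Among 9 FGF ligand and receptor genes only Fgf17 was called (median 0.08). With the 4 further ligand genes placed in the BMP4 11 h column only (Fgf3, Fgf4, Fgf8 and Fgf9, all higher) it was 5 of 13, and the median was 0.31, with Fgfr1 at 76.9 and 91.7 CPM. Of 23 WNT ligand and target genes 5 were higher (median 0.28), namely Wnt3a, Wnt5a (27.3 to 57.6 CPM), T, Rspo3 and Dkk1. Axin2, a broad WNT target, was at 40.4 and 47.1 CPM. Of 12 Notch genes 3 were higher (Hes7, Dll1 and Dll3, median 0.79), and of 15 retinoic acid genes 2 (Cyp26a1 and Cyp26c1, median 0.15). These lists share genes with those above. Hes7, Dll1, Dll3, Rspo3 and Dkk1 are also in the presomitic list, and T, Wnt3a, Fgf17 and Cyp26a1 in the tailbud list. Their calls are thus counted again here and are not separate results. Aldh1a2, which makes retinoic acid, was at 64.2 and 51.3 CPM.

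Intermediate mesoderm, the source of the kidney, gave 5 genes higher of 16 and none lower (median 0.31), beside 2.52% and 0.301% of all genes. Pax2, its early factor (chr19:44756045-44837871), was at 53.01 CPM at 0 h, 0.782 at 96 h, 42.5 and 47.3 in the BMP4 and BMP4 with FGF8 libraries of 5 h, 26.1 with BMP4 at 11 h and 1.67 with BMP4 and FGF4 at 11 h. The ratio to 96 h was 29.02 to 38.5-fold, and the value lay below the 0 h and 5 h libraries and above the FGF4 library. Pax8 went from 0.334 to 1.69 CPM and Gdnf from 1.15 to 2.81 CPM, both under their 0 h levels. Lhx1 (0.734 to 3.08, 2.41 at 0 h) and Gata3 were above both untreated libraries. Osr1 (5.55 to 6.69 CPM) and Wt1 (6.17 to 6.48), which also mark this tissue, were not called.

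Direct targets of BMP signalling were mixed. Of 18 BMP/SMAD target genes analysed 2 were higher and 1 lower (median 0.31), beside 2.52% and 0.301% of all genes. With the 4 further targets placed in the BMP4 11 h column only, Smad7 among them, 4 of 22 were higher and 1 lower (median 0.33). Id genes code for proteins that block bHLH factors. Id4 (chr13:48261228-48266026) was at 1.803 CPM at 0 h, 1.32 at 96 h, 2.01 and 2.07 in the BMP4 and BMP4 with FGF8 libraries of 5 h, 5.17 with BMP4 at 11 h and 3.03 with BMP4 and FGF4 at 11 h, which is 3.45 to 4.43-fold the 96 h level, and BMP4 11 h was its highest library. Id1 was at 31.3 CPM at 0 h, 26.7 at 96 h, 31.1 and 35.2 in the BMP4 and BMP4 with FGF8 libraries of 5 h, 31.8 with BMP4 at 11 h and 30.9 with BMP4 and FGF4 at 11 h. Its 6 values span a narrow range. Id2 went from 57.7 to 74.6 CPM and Id3 from 50.4 to 65.6 CPM, at log2 ratios of 0.37 and 0.38, with BMP4 11 h again the highest of the 6 libraries for both. Gata3, a GATA factor of BMP-exposed ectoderm and nephric duct (chr2:9857078-9890034), was at 5.87 CPM at 0 h, 4.64 at 96 h, 10.4 with BMP4 at 11 h and 5.72 with FGF4 added.

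The feedback inhibitor Smad7, placed in the BMP4 11 h column only, was at 11.5 CPM at 0 h, 11.3 at 96 h and 35.5 in BMP4 11 h, or 2.998 to 3.27-fold the 96 h level. Its partner Smad6 was at 11.6, 12.4 and 13.4 CPM. Msx1, Msx2 and Bambi, frequent BMP readouts, had log2 ratios of 0.13, -0.07 and -0.24, and Atoh8 -0.23. Gata2 (2.19 to 4.003), Hey1, Grem1, Bmper and Nog were between 0.51 (Nog) and 0.79 (Hey1). Dlx3 (-0.10) and Smad9 (-0.43) were slightly lower in BMP4 11 h, and Dlx5, with 3 libraries placed, went from 0.808 to 1.11 CPM. Hand1 (31.8 to 16.3 CPM) missed the 2-fold limit, and Tbx20 (14.8 to 6.38 CPM) was the target called lower. At 0 h and with BMP4 at 5 h, Hand1 was at 1.57 and 1.71 CPM and Tbx20 at 1.13 and 1.42. For both genes BMP4 11 h thus lay between the untreated libraries.

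The machinery of the pathway was near level. None of 25 BMP ligand, receptor, SMAD and antagonist genes was called in either direction (median 0.10). The type I receptor gene Bmpr1a was at 85.5 and 78.2 CPM, the type II gene Bmpr2 at 31.8 and 38.7, and Smad1 at 19.9 and 23.3. Endogenous Bmp4 was at 21.98 and 24.6 CPM, and mouse reads do not measure the added protein. The log2 ratio was lowest for the ligand gene Bmp5 (-0.69), followed by Gdf6 (-0.61). Antagonist genes were at the top, with Grem1 at 0.79, Bmper at 0.79 and Fst, which binds activins and BMPs, at 0.57, beside the ligand gene Gdf11 at 0.71.

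Part of the p53 target genes and of the immediate early genes were higher. The factor p53 is stabilised by DNA damage and other stress and switches on genes that halt the cell cycle or start cell death. Of 18 p53 target genes 7 were higher and none lower (median 0.47), beside 2.52% higher over all genes, and 11 were not called. Of the 7, 5 were above both untreated libraries, a share near that of all higher genes (247 of 351). Trp53cor1 (lincRNA-p21, a p53-induced RNA, chr17:29057430-29079179) was at 0.524 CPM at 0 h, 0.456 at 96 h, 0.6198 and 0.613 in the BMP4 and BMP4 with FGF8 libraries of 5 h, 11.8 with BMP4 at 11 h and 4.84 with BMP4 and FGF4 at 11 h. Its 4 values outside the 11 h libraries lay under 1 CPM, and BMP4 11 h was 21.6 to 31.4-fold the 96 h level. Cdkn1a, its neighbour on the chromosome and the gene of the cell cycle inhibitor p21 (chr17:29090976-29100727), was at 6.85 CPM at 0 h, 4.77 at 96 h, 11.2 and 9.27 in the BMP4 and BMP4 with FGF8 libraries of 5 h, 24.9 with BMP4 at 11 h and 18.97 with BMP4 and FGF4 at 11 h. Here too both 11 h libraries were above the other 4. Sesn2, a stress-induced brake on mTORC1, went from 7.09 to 27.2 CPM, the death gene Bbc3 (PUMA) from 3.096 to 8.69 CPM and the receptor gene Eda2r from 2.83 to 6.28 CPM. Pmaip1 (NOXA), at 1.71 and 14.9, and Btg2, at 11.4 and 26.6, were instead below their 0 h levels of 29.3 and 36.7.

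The remaining p53 targets were less changed. Mdm2, the ligase that degrades p53, was at 33.2 CPM at 96 h, 49.1 with BMP4 at 11 h and 47.7 with FGF4 added, and Gadd45a was at 7.57, 14.6 and 10.6. Bax (0.12), Ccng1 (0.18), Zmat3 (0.15), Aen (0.18), Trp53inp1 (0.24), Phlda3 (0.39) and Plk2 (0.34) had positive log2 ratios under 0.40, while Perp (-0.03) and Sesn1 (-0.18) were slightly negative. Fas could not be placed and Gdf15 was under 1 CPM. No cell cycle gene was called among 27 (median -0.11), with Mki67 at 218 and 191 CPM and Top2a lowest at -0.35.

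Immediate early genes are switched on within minutes by growth factors, serum or stress, cell dissociation included. Of 19 immediate early and dissociation genes analysed 10 were higher and none lower (median 1.18), beside 2.52% higher over all genes. Of the 10, 9 were at least 2-fold above both untreated libraries, beside 142 of all 351 higher genes. The heat shock genes Hspa1a and Hspa1b are counted separately among the 10. Klf4, a zinc finger factor (chr4:55527143-55532466), was at 2.28 CPM at 0 h, 2.51 at 96 h, 4.18 and 3.65 in the BMP4 and BMP4 with FGF8 libraries of 5 h, 16.7 with BMP4 at 11 h and 11.8 with BMP4 and FGF4 at 11 h. Both 11 h libraries were above the other 4. Junb went from 2.81 to 14.3 CPM, Atf3 from 5.05 to 17.0 CPM, Nr4a1 from 3.77 to 11.5 CPM and Ier3 from 0.9899 to 3.47 CPM. Fos, the partner of Jun in AP-1, was at 11.4 CPM at 0 h, 16.7 at 96 h, 34.7 and 38.97 in the BMP4 and BMP4 with FGF8 libraries of 5 h, 38.7 with BMP4 at 11 h and 55.9 with BMP4 and FGF4 at 11 h, so that the 4 growth factor libraries all lay above the 2 untreated ones. Fosb had the same order of groups (3.07 and 6.45 CPM untreated, 19.97 and 18.7 at 5 h, 16.3 and 37.7 at 11 h). Hspa1a and Hspa1b, near-identical heat shock genes side by side on chromosome 17 whose reads cannot be told apart with certainty, were at 6.97 and 7.62 CPM at 96 h, 42.8 and 40.2 in BMP4 11 h, and 117 and 112 where FGF4 was added. Jun, Klf6, Ier2, Ier5, Dusp1 and Zfp36 had ratios below 2-fold once 0.5 CPM was added to both values, and Myc and Socs3 were near level. Klf6 (22.2 to 44.8 CPM) was below 2-fold only through that addition. Egr1, Egr2 and Egr3 could not be placed.

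**Figure D4:**
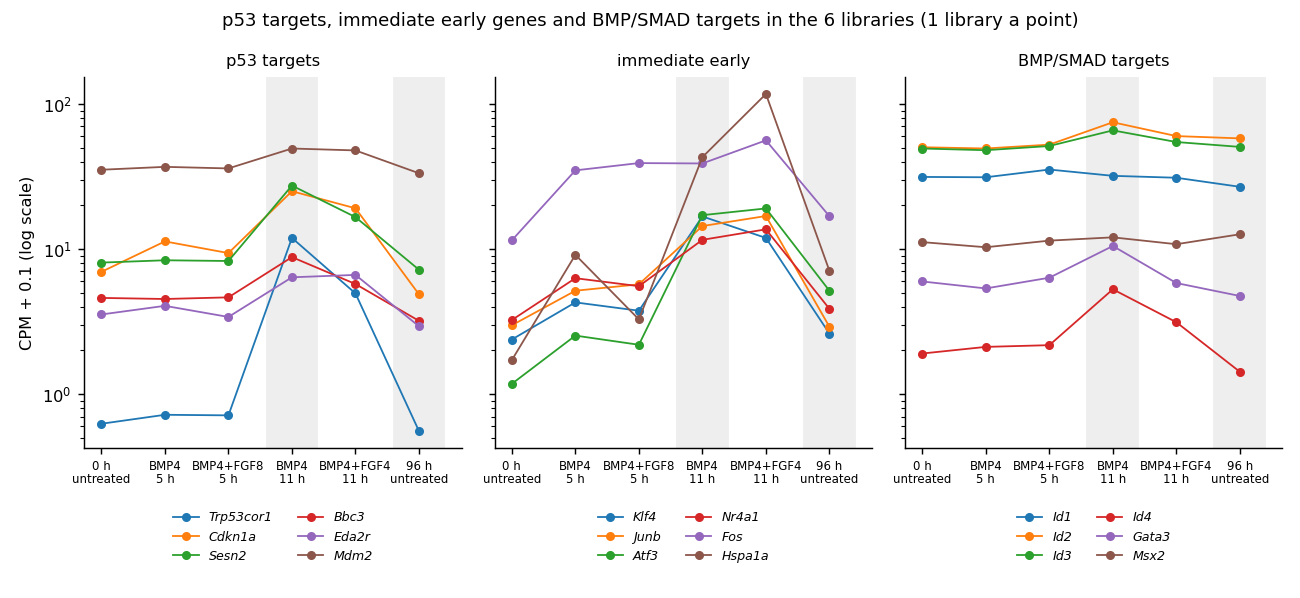
Level of 6 p53 targets, 6 immediate early genes and 6 BMP/SMAD targets in each of the 6 libraries, as CPM + 0.1 on a log scale, 1 library a point; lines only join the values of a gene and grey bands mark the compared libraries. Trp53cor1 lies between 0.456 and 0.6198 CPM outside the 11 h libraries and at 11.8 with BMP4 at 11 h, while Id1 stays between 26.7 and 35.2 CPM.

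Genes outside these lists were named by the size of their interval, and the following were picked from among them after their values were seen. Ppp1r15a (GADD34), which directs the removal of phosphate from eIF2 alpha, went from 19.3 to 64.4 CPM, and the AP-1 family genes Fosl2 and Maff from 3.01 to 14.6 CPM and 2.91 to 14.04 CPM. The kinase gene Sgk1 was at 4.52 and 14.9 CPM and Tnfrsf12a, the TWEAK receptor gene, at 1.12 and 9.52. Of 15 integrated stress response genes 2 were higher (Sesn2 and Ddit4) and none lower, with a median of 0.23, beside 2.52% higher over all genes. In 13 of the 15 the BMP4 11 h level was above both untreated libraries, by any amount. The same held for 13 of 18 p53 targets, 8 of 21 glycolysis and hypoxia genes and 2 of 27 cell cycle genes. This share was not counted over all genes, so the 13 of 15 cannot be set against it. Asns was at 0.08 and Ddit3 (CHOP) at 0.23 on the log2 scale. None of 21 glycolysis and hypoxia genes was called (median 0.13).

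Promoters of these genes were searched for the cAMP response element, TGACGTCA, at which CREB and ATF factors can bind. The 4 windows shown belong to called genes named by the rule and are 90 bases long, 5′ to 3′ on the gene's strand, ending at or before the start site (RefSeq, GRCm38.p6), with the element in capitals.
Epha2, chr4:141301131-141301220, plus strand: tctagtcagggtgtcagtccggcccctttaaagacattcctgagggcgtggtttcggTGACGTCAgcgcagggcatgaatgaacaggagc
Maff, chr15:79347430-79347519, plus strand: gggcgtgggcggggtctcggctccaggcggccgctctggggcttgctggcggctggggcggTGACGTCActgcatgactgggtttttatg
Ppp1r15a, chr7:45526269-45526358, minus strand: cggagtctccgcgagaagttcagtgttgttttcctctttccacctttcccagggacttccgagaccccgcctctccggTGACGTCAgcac
Btg2, chr1:134079273-134079362, minus strand: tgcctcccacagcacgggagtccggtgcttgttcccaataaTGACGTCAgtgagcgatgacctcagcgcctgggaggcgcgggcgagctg
The element's first base lies 33 bases before the start in Epha2, 29 in Maff, 12 in Ppp1r15a and 166 in Btg2. Over the 250 bases before each start, 9 of 227 higher genes with a RefSeq window held it (3.96%), beside 313 of 10165 analysed genes (3.08%) and 1.77% of all 27025 genes; the other 5 were Olfm2, Has1, Arl4d, Dusp8 and 4930412O13Rik. The share is near that of the analysed genes. It was 1 of 12 letter patterns searched on both strands and was chosen for display after the matches were seen. Among the others, the T-box motif TCACACCT was held by 0.44% of the higher and 0.76% of the analysed genes, the AP-1 motif TGANTCA by 7.49% and 5.11%, the p53 decamer by 9.25% and 7.12%, the heat shock element by 0.44% and 0.50%, and the SMAD motif GGCGCC by 18.94% and 19.84%. AP-1 and cAMP elements overlap in letters. A match describes these bases and does not show binding.

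TGF-beta and serum response genes were split. Of 12 analysed 3 were higher and none lower, beside 2.52% and 0.301% of all genes, yet the median was 0.04. Among the 3, the matricellular genes Ctgf and Cyr61 went from 8.14 to 33.5 CPM and from 37.4 to 95.6 CPM. Thbs1, placed in the BMP4 11 h column only, was at 18.9 and 86.9 CPM. Contractile genes were not higher, with Acta2 at -0.45, Myl9 at -0.42 and Tagln at 0.08. Pmepa1, which restrains TGF-beta receptors and is in no list, went from 1.62 to 11.4 CPM.

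Heart muscle and vessel genes were among those lower in BMP4 11 h. Of 20 cardiac and striated sarcomere genes 6 were lower and none higher (median -0.83), and of 23 endothelial and haematoendothelial genes 4 were lower and 2 higher (median -0.70). Over all genes 0.301% were lower. In bulk RNA fewer cells of a type and less RNA per cell cannot be told apart.

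Myh6, the alpha myosin heavy chain of heart muscle (chr14:54941921-54966927), was at 0.331 CPM at 0 h, 26.1 at 96 h, 0.328 and 0.175 in the BMP4 and BMP4 with FGF8 libraries of 5 h, 6.28 with BMP4 at 11 h and 14.7 with BMP4 and FGF4 at 11 h. Its 96 h level was 3.89 to 4.44-fold that of BMP4 11 h, which still lay above the 0 h and 5 h libraries. Myh7, the beta chain, was at 8.09 and 2.15 CPM, the thick filament gene Mybpc3 at 5.82 and 1.52, the light chain genes Myl7 and Myl3 at 14.01 and 5.08 and at 2.23 and 0.681, and troponin T2 (Tnnt2) at 10.2 and 3.85. Troponin C (Tnnc1), placed in the BMP4 11 h column only, went from 3.83 to 1.05 CPM. Each of these was higher in the FGF4 library of 11 h where it has a value, with Myh7 at 6.97 and Myl7 at 8.32 CPM. The rest of the list was under 2-fold once 0.5 CPM was added to both values, which for genes near 1 CPM makes the ratio smaller: Actc1 (46.4 to 24.95 CPM), Tnni1 (-0.90), Myl2 (-0.92), Csrp3 (-0.88), Ttn (-0.78), Nebl (-0.68), Tnni3 (-0.59), Ryr2 (-0.47), Myl4 (-0.43), Myl9, Actn2 (-0.28), Myom1 (-0.22) and Tnnt1 (-0.01) had negative log2 ratios, and Myocd, a coactivator of SRF, was at 0.39. Nppa, Nppb, Pln, Smpx and Nkx2-5 were under 1 CPM.

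The endothelial list summed to 69.7 CPM at 0 h, 208 at 96 h, 131 in BMP4 11 h and 285 where FGF4 was added. Cdh5 (VE-cadherin, chr8:104101625-104144511) was at 1.26 CPM at 0 h, 21.2 at 96 h, 1.03 and 1.25 in the BMP4 and BMP4 with FGF8 libraries of 5 h, 8.04 with BMP4 at 11 h and 29.2 with BMP4 and FGF4 at 11 h, its highest library, whereas Myh6 peaked at 96 h. The receptor genes Tie1, Tek and Kdr went from 11.6 to 4.53 CPM, 14.8 to 6.42 CPM and 26.7 to 12.6 CPM, and Cd34 and Cd93, which are in no list, from 16.3 to 7.28 CPM and 8.05 to 3.33 CPM. Lmo2 (6.93 to 19.2 CPM, 34.4 at 0 h) and Runx1 (1.498 to 3.63 CPM), both blood-forming factors, were the members that were higher. Of 21 lateral plate genes 2 were lower and none higher (median -0.42): Gata4, a heart and endoderm GATA factor (10.97 to 3.78 CPM, 0.478 at 0 h), and Tbx20. Tbx5, Gata6, Wnt2 and Gata5 were at -0.91, -0.79, -0.82 and -0.75, and Tbx3 at 0.43. Further genes named as lower in no list were Mab21l2 (9.66 to 3.902 CPM), Nrk (11.5 to 4.88 CPM), Popdc2, a muscle membrane gene (11.6 to 4.995 CPM), and Prss35 (7.06 to 3.27 CPM). Afp, the yolk sac and liver protein, went from 8.84 to 2.84 CPM with 3.94 at 0 h, and was the member called lower among 19 endoderm and epithelial genes (median -0.15).

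**Figure D5:**
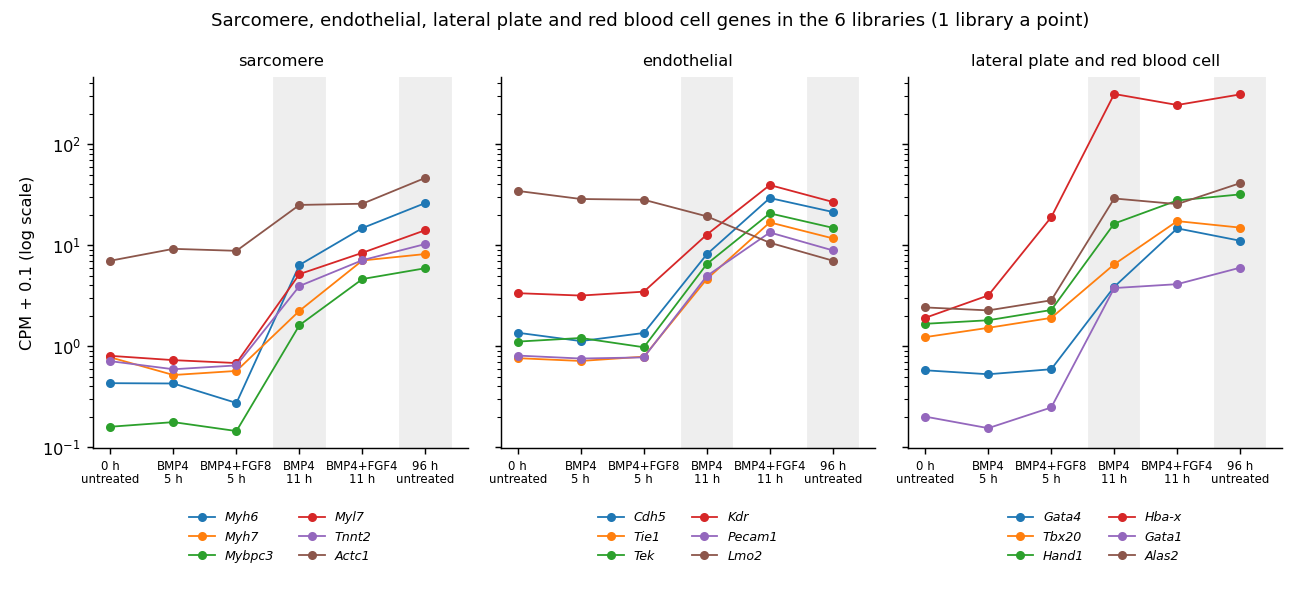
Level of 18 sarcomere, endothelial, lateral plate and red blood cell genes in each of the 6 libraries, as CPM + 0.1 on a log scale, 1 library a point; lines only join the values of a gene and grey bands mark the compared libraries. Myh6 drops from 26.1 CPM at 96 h to 6.28 with BMP4 at 11 h, while Hba-x is level at 311 and 314.

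Red blood cell genes, which were low at 0 h, did not follow the vessel genes in size. None of 18 was called (median -0.43), and their summed level was 30.5 CPM at 0 h, 5386 at 96 h, 5029 with BMP4 at 11 h and 3320.1 with FGF4 added. Both 5 h libraries were at 33.2 and 163 CPM. The embryonic globin genes Hba-x, Hbb-bh1 and Hbb-y had log2 ratios of 0.01, 0.01 and 0.07. Alas2, the haem synthesis enzyme of red cells, and the GATA factor Gata1 had -0.50 and -0.62. The adult globin copies Hba-a1 and Hba-a2 share nearly all their sequence, so reads may have been split between them.

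Markers of other cells moved with the genes above, and their part in these results was not tested. The shares over all genes were 2.52% higher and 0.301% lower. Of 17 fibroblast genes, which feeder cells and embryonic mesenchyme both express, 2 were lower (Lum, 30.4 to 13.5 CPM, and Postn, 102 to 48.3 CPM) and 2 higher (Mgp, 0.326 to 3.62 CPM, and Thy1, 0.423 to 3.12 CPM). Their summed level was 1016 CPM at 96 h, 648 with BMP4 at 11 h, 1497 with FGF4 added and between 269 and 368 in the 0 h and 5 h libraries. The sums over the 20 sarcomere genes were 197 and 102 CPM in the compared libraries. Tailbud genes summed to 342 and 525 CPM, beside 785 at 0 h. Of 5 myeloid genes analysed 1, Itgam, was higher (0.256 to 1.52 CPM), while the defining genes Ptprc, Spi1, Aif1, Emr1 and Mpo were under 1 CPM in every library. No member was called among 17 neural, 10 neural crest or 5 skeletal muscle genes, with the ratios farthest from level at 0.50 (Sox3), -0.76 (Snai2) and -0.70 (Myf5). The 15 imprinted genes gave no call either (lowest Zim1, -0.75, highest Phlda2, 0.19), and of 12 EMT genes Cdh5 alone was called. The sex-linked genes were all under 2-fold, Xist at 80.2 and 115 CPM and Ddx3y at 23.7 and 20.8, so RNA of female and of male cells was present in both.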

How the data were processed

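The authors deposited 1 table of whole-number counts per gene, with no normalization, for 6 libraries of total RNA. Per the submitters' processing notes, the build was mm10 (GRCm38) and the tools included STAR 2.4.0e, cutadapt, HTSeq and DESeq; how reads were counted is not given in the sources used here. Even numbers make up 65.4% to 70.9% of small values (1 to 20), so each fragment may have been counted once per mate, which would make the intervals too narrow.

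The 4 growth factor columns hold more values than the 19342 names (19686 for BMP4 11 h). Each was aligned in order to the names, sorted without regard to case. A cost was charged for values outside the range of both untreated columns, for extra rows, for skipped names and for low sums. In securely placed genes, the BMP4 11 h and 96 h counts always summed to more than 10, a limit the alignment used. Kept were 16799 genes, with 99.1% of the counts, whose row in all 4 columns cost at least 5 units less than any other. The cost was not linear in the distance outside the range, which was taken in steps of 0.25 on the log2 scale. Kept genes also showed no sign of exchange within 3 positions. Columns of equal growth factor time, aligned to each other, had to give the same match. Of 37 name pairs over 3 positions apart with equal counts (500 or more at 96 h) in both untreated libraries, 29 were within 1% of each other at 11 h. Names altered to dates or repeated (27) were left out. The procedure was tested on simulated data.

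CPM use TMM library sizes (edgeR 4.0.16, R 4.3.3), and genes with at least 1 CPM in 1 library were analysed. Another 234 genes were secure by the margin in the BMP4 11 h column but failed the margin in another column or the match between columns. Of these 35 were higher and 7 lower, and they are not in the counts. Intervals are Clopper-Pearson, 95%. The text names, in each direction, up to 15 called genes whose interval lay farthest from 1, given an average of 5 CPM or more and leaving aside symbols of predicted, RIKEN, pseudogene, small RNA and ribosomal RNA loci. It adds up to 15 that are in no list, up to 8 called members per direction of each of 33 lists (else the highest and lowest), and every analysed BMP, p53 and sarcomere gene; others were added after their values were seen, and a few genes that the rule names are not reported here. The members and lists were chosen with earlier results of these data known. Gene positions are from GENCODE M21 (GRCm38). Alternatives changed the pseudocount, filter, scaling (DESeq2 1.42.0) and placement.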

Additional observations from a re-analysis of the deposited data

How the results depend on the processing

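The counts of 351 higher and 42 lower genes became 484 and 72 with 0.1 CPM added, 179 and 14 when 2 CPM was added, and 216 and 27 when genes had to reach 5 CPM in 1 library. No filter gave 366 and 46, DESeq2 size factors 351 and 42, scaling by total counts gave 312 and 52, the 96 h column as the only guide to placement 279 and 28, the 0 h column as the only guide 308 and 32, a secure row asked of the BMP4 11 h column alone 375 and 48, and a margin of 10 units 306 and 34. Scaling by total counts moved the median log2 ratio of all genes from -0.02 to -0.10. Of 106 called genes named by the rule, 79 kept their call with 2 CPM added and 100 with total counts; guided by the 96 h column only, 73 were present and all 73 kept it. List medians changed sign for TGF-beta and serum response (-0.0039 with the 5 CPM filter, -0.0444 with total counts), for endoderm, notochord and epithelial genes (0.1264 with the 5 CPM filter) and for FGF ligands and receptors (-0.0019 with total counts, -0.0288 guided by the 96 h column only). No paired analysis was possible because each condition has 1 library, and for the same reason no replicate could be left out. Values far outside the range of the untreated libraries are placed less often, so such changes are the least complete.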

Other observations

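Further groups of genes stood at least 2-fold above both untreated libraries and were picked out after their values were seen. The first examples code for proteins of the extracellular matrix, and no list or count stands behind the choice. The collagen and elastin crosslinking enzyme gene Lox was at 0.589 CPM at 0 h, 2.28 at 96 h, 14.6 and 8.203 in the BMP4 and BMP4 with FGF8 libraries of 5 h, 12.9 with BMP4 at 11 h and 21.97 with BMP4 and FGF4 at 11 h. Bgn (biglycan) was at 10.2 CPM at 96 h, 25.6 with BMP4 at 5 h and 23.7 at 11 h, and Spp1 (osteopontin) at 0.923, 5.77 and 8.14. Col8a1 was at 0.334, 3.37 and 3.24 CPM and Ltbp2 at 0.541, 4.03 and 3.501. Col1a1 and Col3a1 of the fibroblast list were instead lower in both than at 96 h, with Col1a1 at 191, 31.4 and 106 CPM and Col3a1 at 253, 42.6 and 144.

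The other group was at about 1 CPM or less in the untreated and 5 h libraries and higher at 11 h. The paired Ig-like receptor genes Pira1 and Pira4 were at 0.222 and 0.215 CPM at 96 h, 7.82 and 7.59 in BMP4 11 h, and 2.82 and 2.71 where FGF4 was added; Pira7 and Pira11 had nearly the same values, so copies of the family cannot be told apart. L3mbtl1, a chromatin reader gene of the MBT family, was at 0.171, 5.796 and 2.78 CPM, Tktl1 at 0.219, 3.76 and 2.64, and Bcl6, a repressor known from B cells, at 0.538, 5.54 and 3.23. Outside this group, the pheromone receptor copies Vmn1r135 and Vmn1r163 carried identical values (3.07 CPM at 96 h and 9.45 in BMP4 11 h, with 5.77 at 0 h), as did Vmn1r107, Vmn1r137 and Vmn1r155 (6.29, 18.5 and 11.3). Ribosomal precursor reads (Rn45s) were at 415 and 1035 CPM, and at 673 with FGF8 at 5 h.

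At the low end, the small RNA genes Snord92 and Mir7647 had 7 and 3 counts with BMP4 at 11 h against 936 and 489 at 96 h, and their CPM in the other 4 libraries lay between 1.24 (Mir7647) and 3.24 (Snord92). Mir1188 had 0 counts against 344. Hist1h2af, a histone gene, stood out at 96 h instead, at 6.47 CPM at 96 h and between 0.237 and 0.597 in the other 5 libraries.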
